A study of Mus musculus with 20 samples.

Results

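Light zone cells of the germinal centre were compared by how much CD86 they carried on their surface. The cells were those the authors annotated as light zone, 278 of the 1367 cells in the data, and they were ranked by CD86 fluorescence within each plate. The upper tercile (85 cells, called CD86-high here) was set against the lower tercile (85 cells, CD86-low), which leaves 106 cells between them. The comparison therefore used 170 cells on 19 plates. The remaining plate, replicate 6 of C57BL/6F, held 2 light zone cells among 10 cells in all, too few to split. All cells were eYFP-positive and were sorted one to a well, as B cells or plasma cells, from lymph nodes of C57BL/6 mice given NP-KLH, a hapten on a carrier protein, in Sigma Adjuvant System. CD86-high and CD86-low cells shared the same mice, day 15 of the response and the tamoxifen gavage 4 days earlier. The labels used here do not name the transgene or Cre that marks the cells. Of the 19 plates 9 carried C57BL/6F and 10 C57BL/6M, letters that stand in a column named Sexe, and the number of mice is not given. P-values therefore measure the spread between plates, and sex, animal and anything handled apart between the groups of plates cannot be told apart.

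In a germinal centre, B cells divide and mutate their antibody genes in the dark zone and then move to the light zone. There they take antigen from follicular dendritic cells and present it to T follicular helper cells. CD86 is a costimulatory ligand for CD28 on T cells, and CD83 steadies MHC class II and CD86 at the cell surface. In mice both are used to tell light zone from dark zone cells, together with the chemokine receptor CXCR4, which is high in the dark zone. Cells that gain T cell help switch on Myc, enter the cell cycle and return to the dark zone.

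The members were chosen by CD86 fluorescence, so its levels are a description. On the deposited scale, the inverse hyperbolic sine of the signal over 10, CD86 ran from 2.89 to 4.41 in CD86-high cells (median 3.50) and from −0.88 to 2.86 in CD86-low cells (median 1.97). The cells between ran from 1.73 to 3.46. Plate means were 3.58 ± 0.243 in CD86-high and 1.76 ± 0.442 in CD86-low cells (SD, n = 19 plates). At the upper boundary the lowest CD86-high cell stood above the next cell by 0.00493 to 0.431 depending on the plate (median 0.0950). At the lower boundary the gap ran from 0.0138 to 0.591 (median 0.144). The split is thus a range cut from a continuous level. Each plate gave between 2 and 6 cells to each class.

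**Figure D1:**
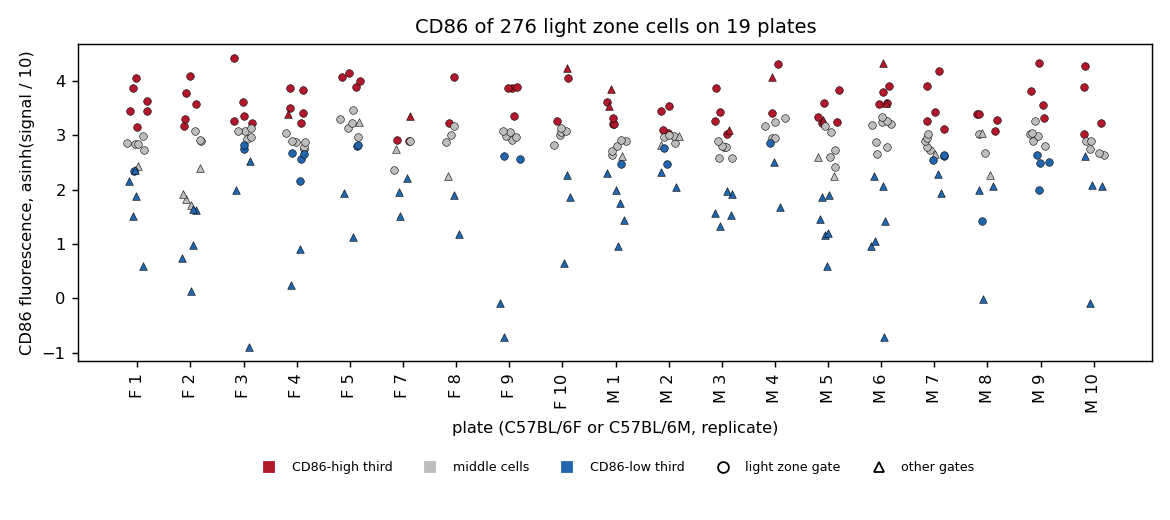
CD86 fluorescence of every light zone cell (y axis, inverse hyperbolic sine of the signal over 10) on each of the 19 plates (x axis), coloured by CD86 class, with circles for cells of the light zone gate and triangles for cells of other gates. CD86-low cells, down to −0.88, are mostly triangles, and CD86-high cells, up to 4.41, are mostly circles.

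The light zone name was checked against Cd83 and Cd86 transcripts, which the annotation may itself have used. A Cd83 count was found in 89.4% of CD86-high, 88.7% of middle and 81.2% of CD86-low cells, against 60.8% of dark zone and 11.7% of plasma cells. A Cd86 count was found in 54.1%, 51.9% and 38.8% of those 3 light zone classes in the same order, against 36.3% of dark zone and 4.17% of plasma cells. The median depth was 46194 counts per CD86-high and 46416 per CD86-low cell, and it was higher, at 56254 and 70190 counts, in dark zone and plasma cells. CD86 fluorescence itself had a median of 2.89 in annotated light zone and 2.29 in dark zone cells, below the 3.05 of light-to-dark zone cells and the 3.01 of pre-memory cells. Light zone cells were thus not the state with the most CD86.

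The CD86 classes also differed in the sort gate, whose definition is not given in the sources used here. The gates may themselves have used CD86, so their shares are a description. The light zone gate supplied 75 of 85 CD86-high cells (88.2%) and 23 of 85 CD86-low cells (27.1%). The dark zone gate supplied 1 CD86-high and 49 CD86-low cells, the pre-plasma gate 8 and 9, and the plasma cell gate 1 and 4. Results are therefore also given within the light zone gate, where 17 plates could be split again into 54 CD86-high and 54 CD86-low cells. CD86 averaged 3.68 in the CD86-high and 2.68 in the CD86-low cells of that smaller comparison.

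Depth limited what the transcripts could show. The summed counts of a class on a plate ran from 53797 to 866626 in CD86-high cells (median 222161) and from 752 to 522239 in CD86-low cells (median 229364). The pool of 752 counts was the CD86-low pool of replicate 8 of C57BL/6F. In each class 5 cells had under 5000 counts. Levels are given as CPM, counts scaled to a common library total, with totals adjusted by TMM, a normalization that is robust to a few abundant genes. Markers of other cell types were sparse, apart from Lck among the T cell and Cst3 among the myeloid markers. Of 12 T cell markers in the matrix only Lck and Cd3d had any count, and their summed level was 375 ± 353 CPM (0 to 1263) in CD86-high and 777 ± 743 CPM (0 to 2341) in CD86-low pools, while Cd3g, Trac, Cd4 and Cd8a stood at 0. The 12 myeloid markers in the matrix summed to 650 ± 426 CPM (0 to 1794) in CD86-high and 600.0 ± 318 CPM (13.8 to 1298) in CD86-low pools, with Csf1r and Adgre1 at 0. Cst3 made up most of these sums, at 447 CPM in CD86-high and 516 CPM in CD86-low pools. The 9 stromal and red cell markers summed to 191 ± 253 CPM (0 to 884) in CD86-high and 123 ± 184 CPM (0 to 552) in CD86-low pools, with Col1a1 and Hba-a1 at 0.

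The first comparison asked which other surface proteins moved with CD86. None of the 8 fluorescence values reported here passed the threshold of 0.05 in light zone cells. Several did in dark zone cells split by the same rule (144 CD86-high and 144 CD86-low cells). The dark zone classes held 5 to 10 cells per plate, against 2 to 6 in the light zone. Their CD86 means differed by 2.49, against 1.82 in the light zone, so the 2 splits are not alike in power. Values are plate means on the inverse hyperbolic sine scale. Each test is a two-sided permutation test that flips the sign of plate differences, with 100000 flips, and p-values are adjusted over 9 fluorescence values.

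In light zone cells the means leaned to CD86-high cells for several proteins. CXCR4 ran from 1.38 to 3.75 in CD86-high cells (median 2.25) and from 1.55 to 2.58 in CD86-low cells (median 2.05), so the classes overlapped. It averaged 2.32 ± 0.543 in CD86-high and 2.06 ± 0.304 in CD86-low cells, higher on 16 of 19 plates (adjusted p = 0.258, permutation test). B220, the B cell form of CD45, averaged 1.67 ± 0.137 in CD86-high and 1.53 ± 0.323 in CD86-low cells, higher on 13 plates, with the same adjusted p. GL7, a glycan mark of germinal centre cells, averaged 1.93 ± 0.619 in CD86-high and 1.72 ± 0.638 in CD86-low cells (adjusted p = 0.318, permutation test over 19 plates). These 3 differences were within the spread between plates. Without replicate 8 of C57BL/6F the B220 difference was 0.184 (adjusted p = 0.0482), and without replicate 10 of C57BL/6M the CXCR4 difference was 0.331 (adjusted p = 0.0295), both by permutation test, so 1 plate decides each of these calls.

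In the dark zone split, B220, GL7 and CD38 passed the same test, as did PSGL1 (adjusted p = 0.0027). GL7 was higher there by 0.826 ± 0.792 (adjusted p = 0.00048), CD38 by 0.489 ± 0.471 (adjusted p = 0.00048) and B220 by 0.188 ± 0.197 (adjusted p = 0.00124), by permutation test over 19 plates. The difference between zones itself did not pass for any of these 3 (adjusted p = 0.0869, 0.0702 and 0.685 for GL7, CD38 and B220, permutation test), so a zone-specific link is not shown. The CD38 difference between zones passed without replicate 7 or 10 of C57BL/6F or replicate 3 or 7 of C57BL/6M, and that of GL7 without replicate 9 of C57BL/6F, so these calls turn on single plates as well. With all plates the difference between zones passed for PSGL1, a selectin ligand. PSGL1 averaged 0.120 in CD86-high and 0.246 in CD86-low light zone cells, and 0.257 in CD86-high and 0.118 in CD86-low dark zone cells. The light zone difference lay below the dark zone difference on 16 of 19 plates, by 0.265 ± 0.469 on average (adjusted p = 0.0307, permutation test). That call was lost without any 1 of 5 plates (replicates 1, 4 and 8 of C57BL/6F and 5 and 10 of C57BL/6M), where the difference was −0.264 to −0.169 with an adjusted p of 0.0517 to 0.0575. CD138, the plasma cell syndecan, averaged 0.223 ± 0.285 in CD86-high and 0.356 ± 0.418 in CD86-low light zone cells (adjusted p = 0.318, permutation test over 19 plates). Within the light zone gate CD138 leaned the other way, at 0.0884 in CD86-high and 0.0435 in CD86-low cells (adjusted p = 0.447, permutation test, n = 17). High minus low differences in that gate were −0.0304 for PSGL1, 0.0343 for GL7, 0.160 for B220 and 0.226 for CXCR4, and none of these passed.

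**Figure D2:**
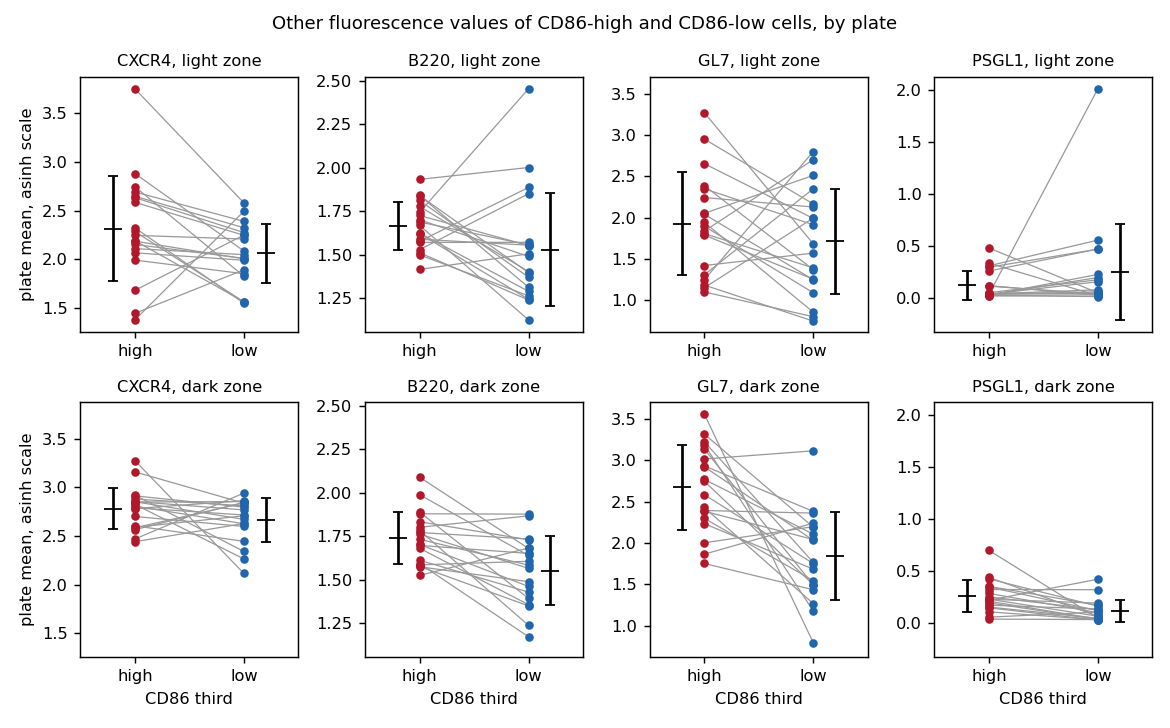
Plate means of CXCR4, B220, GL7 and PSGL1 fluorescence (y axes, inverse hyperbolic sine scale) in CD86-high (left) and CD86-low (right) cells, light zone in the top row and dark zone in the bottom row, with a line for each plate and bars for mean ± SD. Lines of the 19 plates cross in the light zone row, and GL7 averages 2.67 in CD86-high and 1.85 in CD86-low dark zone cells.

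The second comparison concerned the cell cycle, using the phase that the authors gave each cell. Fewer CD86-high cells were in G1. On average 44.5 ± 24.2% of CD86-high cells on a plate were in G1, against 70.0 ± 17.9% of CD86-low cells (SD, n = 19). The share was lower in CD86-high cells on 12 plates, equal on 7 and higher on 0, with a mean difference of −25.5 ± 27.6 percentage points (adjusted p = 0.00832, permutation test). Pooled over plates, 38 of 85 CD86-high cells were in G1 (44.7%, 95% interval 33.9 to 55.9), against 58 of 85 CD86-low cells (68.2%, 57.2 to 77.9). The middle cells had 67 of 106 in G1 (63.2%). These intervals are exact Clopper-Pearson intervals and cover counting error only.

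Both other phases held more CD86-high cells. S phase held 33.9 ± 15.6% of CD86-high and 22.8 ± 17.3% of CD86-low cells per plate (adjusted p = 0.0278, permutation test, n = 19). G2/M held 21.6 ± 20.9% of CD86-high and 7.19 ± 11.7% of CD86-low cells (adjusted p = 0.0283, permutation test, n = 19), or 19 against 8 cells. The G2/M difference moved with single plates. It was 75 points on replicate 5 of C57BL/6F, where the G1 share differed by −100 points, and it no longer passed without that plate (11.02 points, adjusted p = 0.0547). It also did not pass without any 1 of 6 other plates (replicate 9 of C57BL/6F and replicates 4, 7, 8, 9 and 10 of C57BL/6M), where it was 12.4 to 13.8 points. The S phase difference did not pass without replicate 5 of C57BL/6F or replicate 10 of C57BL/6M, at 10.4 points each. The G1 difference passed without each plate in turn, at −26.9 to −21.4 points.

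CD86-high cells also yielded more genes per cell, 1374 ± 536 against 1092 ± 404 in CD86-low cells (adjusted p = 0.0171, permutation test, n = 19), and were higher on 13 plates. Thinned to 20000 counts each, with 51 shallower light zone cells left out before a new split (68 CD86-high and 68 CD86-low cells on 17 plates), the values were 1343 in CD86-high and 1143 in CD86-low cells, against 1510 and 1262 genes unthinned in the same cells (adjusted p = 0.110 for the thinned values, permutation test). In those deeper cells G1 held 45.0% of CD86-high and 61.5% of CD86-low cells per plate (adjusted p = 0.110). Within the light zone gate G1 held 50.1 ± 31.2% of CD86-high and 66.8 ± 19.5% of CD86-low cells (adjusted p = 0.440, permutation test, n = 17). The phase differences thus kept their direction and did not pass the threshold in either subset. Both subsets held fewer cells, and the parts of depth and gate in the full difference were not tested further.

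Dark zone cells split by CD86 showed phase differences too. G1 held 40.0 ± 20.0% of CD86-high and 59.0 ± 15.5% of CD86-low dark zone cells (adjusted p = 0.00644, permutation test, n = 19), and G2/M held 35.4 ± 19.7% and 20.8 ± 12.3% (adjusted p = 0.0337). The G1 differences of the zones differed by −6.57 ± 37.7 points, light zone minus dark zone (adjusted p = 0.743, permutation test).

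**Figure D3:**
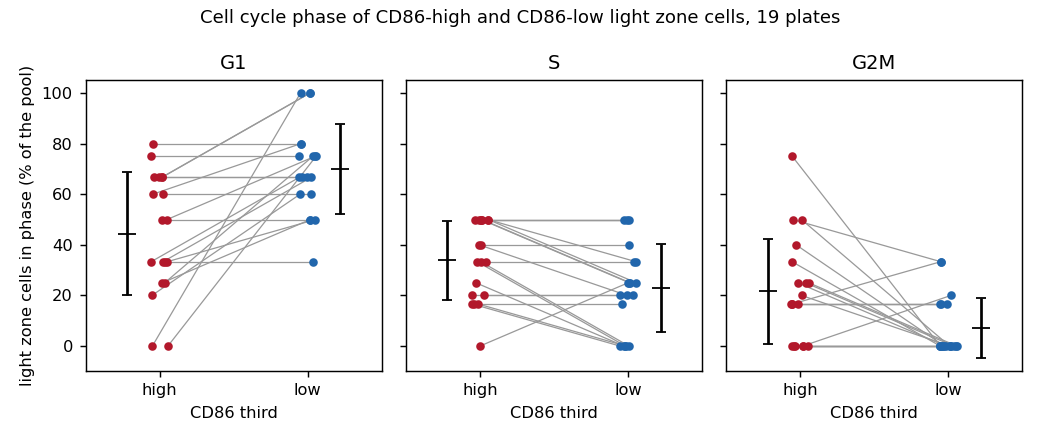
Share of light zone cells in G1, S and G2/M on each plate (y axis, percent of the cells of a class), CD86-high left and CD86-low right, with a line per plate and bars for mean ± SD over 19 plates. The G1 share averages 44.5% in CD86-high and 70.0% in CD86-low cells and no plate line shows a higher share in CD86-high cells.

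Of the authors' module scores per cell, 4 passed. The S score rose to 0.122 ± 0.116 in CD86-high, against 0.0125 ± 0.150 in CD86-low cells (adjusted p = 0.0110), and the G2/M score to 0.0783 ± 0.166, against −0.0589 ± 0.122 (adjusted p = 0.0278), both by permutation test over 19 plates. The score the deposited table names ACT was 0.276 ± 0.0611 in CD86-high and 0.231 ± 0.0705 in CD86-low cells, higher on 15 of 19 plates (adjusted p = 0.0278, permutation test). The plasma cell score was 0.0491 ± 0.0272 in CD86-high and 0.0741 ± 0.0304 in CD86-low cells, lower on 14 of 19 plates (adjusted p = 0.0278, permutation test). The ACT and plasma cell score calls were lost without replicate 5 or 9 of C57BL/6F or replicate 10 of C57BL/6M, and the G2/M score call without replicate 5 of C57BL/6F or replicate 10 of C57BL/6M, with adjusted p up to 0.0526. The light zone score was 0.129 ± 0.0334 in CD86-high and 0.134 ± 0.0253 in CD86-low cells (adjusted p = 0.608, permutation test over 19 plates). In all, 8 of 16 cell features passed in light zone cells, and 0 of 16 passed within the light zone gate (4 with an unadjusted p under 0.05). The 8 include the shares of G1, S and G2/M and the S and G2/M scores, which all measure the cell cycle and are not independent.

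The third comparison tested every gene on counts summed per class and plate, with the plate as a block, by edgeR's quasi-likelihood test. No gene passed an adjusted p of 0.05. Of 2069 genes with enough counts to test, 0 were called (0%), against 60 with an unadjusted p under 0.05 (2.9%), 48 higher (2.32%) and 12 lower (0.58%) in CD86-high cells. DESeq2 on the same pools called 38 genes (1.84%), 27 higher (1.3%) and 11 lower (0.532%). The median log2 fold change over all tested genes was 0.25 and 65% of them lay above 0. Fold changes below are as fitted, with that shift not subtracted. Every named gene that was tested had an adjusted p of 0.999 in edgeR. The 10 genes with the smallest p, 5 in each direction, were all among those DESeq2 called, with adjusted p from 0.00141 to 0.0474. A fitted log2 fold change follows plate differences, and it can differ from the ratio of mean CPM in size and in sign.

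Cd86 messenger RNA, from a gene on chromosome 16 (36603869 to 36666081, minus strand, GRCm38), varied too much between plates to show how closely it followed the protein. It ran from 0 to 2783 CPM in CD86-high pools (median 571) and from 0 to 846 CPM in CD86-low pools (median 380). The ranges overlapped, and the CD86-high pool was above on 11 plates and below on 7. The log2 fold change was 0.90 ± 0.86 (SE, p = 0.30 before adjustment in edgeR) and ran from −1.29 to 2.11 under alternatives, with −1.29 within the light zone gate. A Cd86 count was found in 54.1% of CD86-high cells (95% interval 43.0 to 65.0) and 38.8% of CD86-low cells (28.4 to 50.01). Cd83, on chromosome 13 (43784775 to 43803132, plus strand), averaged 4262 ± 1661 CPM in CD86-high and 3789 ± 2078 CPM in CD86-low pools, a log2 fold change of 0.25 ± 0.22. Cd80, the gene of the other CD28 ligand, had 0 counts in all pools, as did the chemokine receptor gene Ccr7.

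The 5 genes with the smallest p in the higher direction were 2700094K13Rik, Shcbp1, Thoc6, Plk1 and Nusap1. Plk1, a mitotic kinase, ran from 0 to 873 CPM in CD86-high pools (median 243) and from 0 to 791 CPM in CD86-low pools (median 0). It had counts in 15 CD86-high and 5 CD86-low pools and was higher on 14 plates and lower on 2 (log2 4.74 ± 1.51, p = 0.00375 before adjustment). Nusap1, a spindle protein, averaged 426 ± 445 CPM in CD86-high and 110 ± 218 CPM in CD86-low pools (log2 4.59 ± 1.47), higher on 13 plates and lower on 2. Shcbp1 averaged 333 ± 357 CPM in CD86-high and 65.7 ± 122 CPM in CD86-low pools (log2 4.69 ± 1.36), higher on 16 plates and lower on 1. Thoc6, of the THO complex in messenger RNA export, averaged 139 ± 121 CPM in CD86-high and 36.4 ± 62.1 CPM in CD86-low pools (log2 3.91 ± 1.22). These 4 genes had counts in 5 to 8 of the 19 CD86-low pools and in 15 or 16 of the CD86-high pools, and the classes overlapped.

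The smallest p belonged to 2700094K13Rik, which RefSeq lists as a synonym of Selenoh, the gene of selenoprotein H. It ran from 0 to 2284 CPM in CD86-high pools (median 689) and from 0 to 1316 CPM in CD86-low pools (median 143), and the CD86-high pool was above on 15 plates and below on 2. The log2 fold change was 2.71 ± 0.77 (p = 0.00135 before adjustment). In a joint fit with the dark zone pools it was the 1 of 4675 genes called in light zone cells (0.0214%; edgeR adjusted p = 0.0448). Its dark zone log2 fold change in that fit was 0.05 ± 0.43, and the difference between zones was 2.66 ± 0.70 (edgeR adjusted p = 0.558). The dark zone split and the difference between zones each had 0 of 4675 genes called (0%), with 97 and 171 genes at an unadjusted p under 0.05. Without the plate block the difference between zones had 3 genes called (0.0642%), Fra10ac1 and Krt222 higher (0.0428%) and 3300005D01Rik lower (0.0214%) in light than in dark zone cells. None of these 3 had enough counts to be tested in the light zone pools alone, and none was called with the plate block.

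The 5 genes with the smallest p in the lower direction were Cd72, Jchain, Vpreb3, Mzb1 and Nemf. Jchain, which joins IgM and IgA into polymers, ran from 289 to 3444 CPM in CD86-high pools (median 2011) and from 1962 to 6070 CPM in CD86-low pools (median 2813). It was lower in CD86-high cells on 17 plates and higher on 2 (log2 −0.72 ± 0.22, p = 0.00195 before adjustment). Mzb1, a chaperone of antibody secretion, averaged 1351 ± 601 CPM in CD86-high and 2101 ± 778 CPM in CD86-low pools (log2 −0.68 ± 0.22) and was lower on 15 plates. Cd72, an inhibitory receptor of B cells, averaged 457 ± 467 CPM in CD86-high and 1255 ± 1028 CPM in CD86-low pools (log2 −2.03 ± 0.60), lower on 16 plates and higher on 3. Vpreb3, related to the surrogate light chain, averaged 610 ± 686 CPM in CD86-high and 1266 ± 871 CPM in CD86-low pools (log2 −1.95 ± 0.61). Nemf, a ribosome quality control factor, averaged 67.1 ± 99.4 CPM in CD86-high and 269 ± 231 CPM in CD86-low pools (log2 −4.03 ± 1.37). A median split of all light zone cells called Jchain alone among 2947 genes (0.0339%; edgeR adjusted p = 0.0260), and a fit without estimateDisp called Cd72 alone (0.0483%; adjusted p = 0.0205). Within the light zone gate the log2 fold change of Jchain was −1.09 ± 0.39 (p = 0.00851 before adjustment, edgeR; adjusted p = 0.999).

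**Figure D4:**
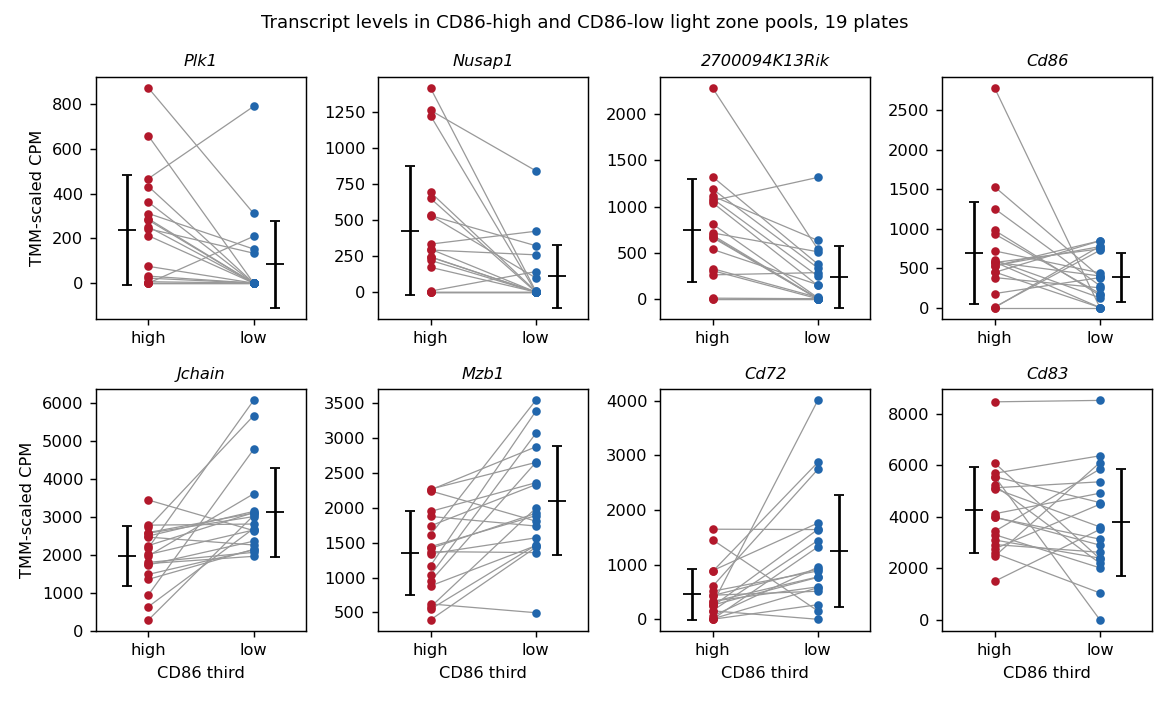
TMM-scaled CPM (y axes) of Plk1, Nusap1, 2700094K13Rik, Cd86, Jchain, Mzb1, Cd72 and Cd83 in the CD86-high (left) and CD86-low (right) pool of each of 19 plates, with a line per plate and bars for mean ± SD. Plk1 stands at 0 CPM in 14 of 19 CD86-low pools, and Jchain is lower in the CD86-high pool on 17 plates.

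Genes of activation and T cell help gave little that stood apart from the plate spread. Myc had counts in 10 CD86-high and 4 CD86-low pools (556 and 137 counts in all), averaged 211 ± 479 CPM in CD86-high and 45.0 ± 108 CPM in CD86-low pools, and did not pass the count filter. Without that filter its log2 fold change was 2.35 ± 1.34. The transcription factor gene Batf averaged 170 ± 296 CPM in CD86-high and 60.1 ± 108 CPM in CD86-low pools, also below the filter. The activation antigen gene Cd69 averaged 177 ± 276 CPM in CD86-high and 137 ± 200 CPM in CD86-low pools. Cd40, the receptor for T cell help, had a log2 fold change of −0.87 ± 1.42, the adhesion gene Icam1 of −0.58 ± 1.23, Slamf6 of −0.49 ± 1.05, the cytokine receptor gene Il21r of −0.70 ± 1.02 and the inhibitor gene Nfkbia of −0.01 ± 0.27. Mean CPM went the other way for Icam1 (285 in CD86-high and 193 in CD86-low pools) and Nfkbia (1296 and 1025). The peptide loading genes Cd74 and H2-Aa were measured more closely, at −0.03 ± 0.08 and 0.02 ± 0.12. Nr4a1, an early gene of receptor signalling, had 15 counts in CD86-high and 0 in CD86-low pools, and Irf4 had 9 and 76 counts.

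Of the genes of zone identity and fate, those named in this paragraph either had standard errors larger than their fold change or were too sparse to test. S1pr2, a confining receptor of germinal centre cells, had a log2 fold change of −0.68 ± 1.25 and the cyclin gene Ccnd3 of −0.14 ± 0.91. Ccnd3 averaged 327 CPM in CD86-high and 278 CPM in CD86-low pools, the other way from its fitted value. Cxcr4 had 19 counts in CD86-high and 3 in CD86-low pools, so the transcript cannot be set against the CXCR4 protein at this depth. Bcl6 had 215 and 43 counts, Foxo1 40 and 271, Ccnd2 79 and 48, and Gpr183 195 and 180 counts in CD86-high and CD86-low pools, each in few pools. The plasma cell regulator gene Prdm1 had 0 counts in CD86-high and 36 in CD86-low pools, all in 1 pool, and Sdc1, the gene of CD138, had 0 and 1 counts. Xbp1 averaged 286 ± 315 CPM in CD86-high and 281 ± 282 CPM in CD86-low pools, with a fitted log2 fold change of −0.50 ± 0.89.

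Gene lists were described without the count filter, which keeps a gene for being high in either class. Over all 10911 genes with a count, 61.9% lay above 0 and the median log2 fold change was 0.24. All 31 genes of the G2 and M phase list lay above 0, with a median of 2.22. Of the 15 tested, edgeR called 0 and DESeq2 called 2, Nusap1 and Plk1. Their summed level was 10839 ± 7134 CPM in CD86-high and 5765 ± 4721 CPM in CD86-low pools, higher on 13 of 19 plates. Tpx2, a spindle assembly factor, averaged 327 CPM in CD86-high and 101 CPM in CD86-low pools (log2 3.84 ± 1.63), and Birc5, a chromosomal passenger, 751 and 372 CPM (1.60 ± 0.92). Mki67 averaged 337 ± 359 CPM in CD86-high and 222 ± 294 CPM in CD86-low pools (1.91 ± 1.11). Among members that passed the filter the median was 1.91 over 15 genes, 1.40 without replicate 5 of C57BL/6F, and 1.68 over 11 genes within the light zone gate. The medians of all tested genes in these settings were 0.25, 0.22 and 0.03. In cells called G1 only 1 member could be tested.

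S phase genes leaned the same way, with 25 of 30 above 0 and a median of 0.74, and edgeR called 0 of the 24 tested. Tyms, which makes thymidylate, averaged 355 CPM in CD86-high and 166 CPM in CD86-low pools (log2 2.39 ± 1.37). The replication helicase gene Mcm5 had a log2 fold change of −0.47 ± 0.95. The dark zone median was 1.08 for the G2 and M phase list and 0.17 for the S phase list. All genes had a median of 0.165 in that dark zone fit, so the S phase list did not stand apart there.

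Plasma cell and secretory genes leaned to CD86-low cells. Of 22 genes 19 lay below 0, with a median of −0.41. Of the 12 tested, edgeR called 0 and DESeq2 called 2, Jchain and Mzb1. Their summed level ran from 2434 to 10700 CPM in CD86-high pools (median 7550) and from 6583 to 16136 CPM in CD86-low pools (median 10073). The CD86-high pool was below on 16 of 19 plates and above on 3. Beside Jchain and Mzb1, the chaperone gene Hsp90b1 had a log2 fold change of −2.24 ± 1.22 and the disulfide isomerase gene Pdia6 of −1.29 ± 0.81, while the translocon gene Ssr4 stood at 0.44 ± 0.84. Within the light zone gate 8 of 10 tested members lay below 0 (median −0.59, against 0.03 for all tested genes). Among G1 cells only 5 of 9 did (median −0.07, against 0.21 for all tested genes). CD86-low pools held 4 cells of the plasma cell gate and CD86-high pools 1, and the part of those cells was measured only through the gate comparison. Dark zone cells gave a median of −0.10 for this list, against 0.165 for all genes of that fit.

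**Figure D5:**
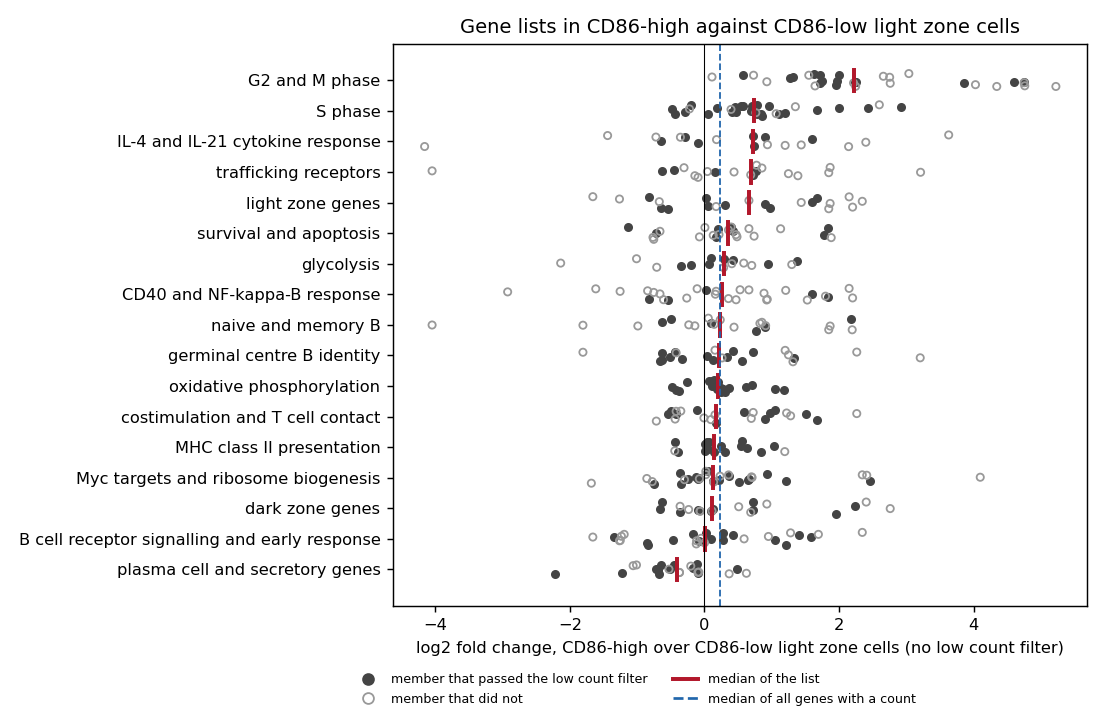
Log2 fold change of CD86-high over CD86-low light zone pools (x axis) for each member of the gene lists (y axis), fitted without the count filter, with filled points for members that passed the filter, a red line for the list median and a dashed blue line for the median of all genes, 0.24. The G2 and M phase list has a median of 2.22 and the plasma cell and secretory list one of −0.41.

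The other lists are set against the median of 0.24 of all genes. Without the filter, medians of the IL-4 and IL-21, trafficking and light zone lists lay nearly as far above it as that of S phase genes (0.74). Among members that passed the filter these 3 medians were 0.68 (7 genes), 0.11 (5 genes) and 0.12 (10 genes). The filtered median was 0.68 for S phase genes and 0.25 for all tested genes, so the trafficking and light zone lists did not stand above all genes there. Costimulation and T cell contact genes lay above 0 in 14 of 23, with a median of 0.16, and Slamf1, a contact receptor of lymphocytes, had a log2 fold change of 1.64 ± 1.61. CD40 and NF-kappa-B response genes lay above 0 in 17 of 28 (median 0.27), MHC class II genes in 14 of 17 (median 0.14) and B cell receptor signalling genes in 15 of 29 (median 0.00). Light zone genes lay above 0 in 15 of 21 (median 0.66), dark zone genes in 12 of 20 (median 0.12) and germinal centre B genes in 14 of 22 (median 0.21). Myc target genes lay above 0 in 20 of 32 (median 0.13). IL-4 and IL-21 response genes lay above 0 in 11 of 18 (median 0.73), and Il4i1, an amino acid oxidase gene, averaged 786 CPM in CD86-high and 325 CPM in CD86-low pools (log2 1.51 ± 0.92). Within the light zone gate 10 light zone and 7 IL-4 and IL-21 members passed the filter. Their medians were −0.16 and −0.38, against 0.03 for all genes tested there. These gate medians compare with the filtered medians over all gates, 0.12 and 0.68, and not with the unfiltered ones. Naive and memory, survival, trafficking, oxidative phosphorylation and glycolysis lists had medians of 0.23, 0.36, 0.69, 0.20 and 0.29. Oxidative phosphorylation genes lay above 0 in 16 of 20 (80%), against 61.9% of all genes. No member of any list was called by edgeR in the comparison of terciles.

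The last comparison concerned the B cell receptor, whose somatic mutations build up over rounds of the germinal centre reaction. A heavy chain was assembled in 48 of 85 CD86-high and 44 of 85 CD86-low cells. Plate means of heavy chain mutations were 0 to 4.50 in CD86-high cells (median 2) and 0 to 9.50 in CD86-low cells (median 3.17), on 17 plates with a chain in both classes. The means were 2.13 ± 1.42 in CD86-high and 3.49 ± 2.39 in CD86-low cells, lower on 10 plates and higher on 6, which did not pass (adjusted p = 0.0896, permutation test). The middle cells averaged 4.60 ± 2.23, so in this split over all gates mutations did not follow the order of CD86. Within the light zone gate the means were 1.99 ± 1.12 in CD86-high and 4.37 ± 2.89 in CD86-low cells, lower on 11 of 13 plates (adjusted p = 0.0677, permutation test). Middle cells of that gate averaged 3.27 ± 2.06, between these classes. Light chains carried 1.76 ± 0.958 mutations in CD86-high and 2.29 ± 1.25 in CD86-low cells (adjusted p = 0.116, permutation test over 19 plates).

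IGHV1-72, the mouse heavy chain gene typical of the response to NP, was used by 0 of 48 CD86-high cells with a heavy chain, which allows a share of up to 6.25% by a limit of 3 counts (exact 95% upper bound 7.40%), and by 3 of 44 CD86-low cells (6.82%, 95% interval 1.43 to 18.7). It was used by 10 of 59 middle cells (16.9%, 8.44 to 29.0). Mutated heavy chains were found in 36 of 48 CD86-high, 35 of 44 CD86-low and 54 of 59 middle cells. The 92 CD86-high and CD86-low cells with a clone fell into 83 clones, 4 of which had cells in both classes, and the largest held 4 cells.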

How the data were processed

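The authors deposited a matrix of counts, whole numbers for 16047 genes in every cell. STAR 2.5.3a, HTSeq 0.9.1 and mm10 were used per the submitters' processing notes, on FB5P-seq libraries, which read 5′ ends and were preamplified for 22 cycles per the labels' protocols. The filter on cells is not given in the sources used here. The authors' deposited table of cells gives annotation, gate, phase, plate, fluorescence as a score (inverse hyperbolic sine of compensated signal over 10 or 100), module scores and mutations. Its spike-in share is a fraction in the deposited values and was multiplied to percent. The 33 other columns of that table were not used. Plates cannot be tied to single labelled samples, so each plate took its group from the letter F or M, and 20 plates held 3208858 to 11908095 counts each, except 1 with 5979.

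Light zone cells were ranked by CD86 within a plate, and counts of each outer tercile were summed where it held at least 2 cells. The members and lists were chosen with earlier results of these data known. Both pools of a plate shared its handling, so the plate was a block. Genes were filtered by filterByExpr by CD86 class, scaled by TMM and tested by edgeR 4.0.16 (estimateDisp, glmQLFit, glmQLFTest; R 4.3.3) with Benjamini-Hochberg adjustment over all tested genes and a threshold of 0.05. DESeq2 1.42.0 was an alternative. The light and dark zone pools were also fitted jointly. Fluorescence (9 values) and cell features (16) were tested over plate differences by two-sided sign-flip permutation (100000 resamples, exact under 10 plates; scipy 1.17.1, numpy 2.4.6, pandas 2.3.3, python 3.11.15), adjusted within each family. The scripts were tested on simulated data. Named genes were the 5 with the smallest p in each direction and a list of 32 symbols, and the lists hold textbook members. Other settings were DESeq2 scaling, no filter, no block, a median split, the light zone gate, G1 cells, at least 4 cells per pool, at least 5000 counts per cell, cells thinned to 20000 counts, no immunoglobulin genes, and each plate or group of plates left out. Some results are not reported here.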

Additional observations from a re-analysis of the deposited data

Results flagged for a closer look

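Within the 9 C57BL/6F plates, 9 high minus low differences lay far from the other plates, out of 50 sets of plates examined, of which chance flags about 1 in 20. Replicate 8 stood apart in PSGL1 (−1.98), B220 (−0.711), log10 counts per cell (1.48) and the memory score (0.282), and its CD86-low pool was the 1 of 752 counts. Replicate 5 stood apart in the share of cells in G1 (−100 percentage points), in G2/M (75 points) and in the G2/M score (0.783), from 4 cells per class. Replicate 7 stood apart in the spike-in share (−21.5 percentage points). Replicate 10 stood apart in the stress score (0.0338). Without replicate 8 the mean difference over the 18 other plates was 0.0294 in log10 counts per cell, against 0.106 with it, and −0.00306 in the memory score, against 0.0119. Without replicate 5 it was 0.101 in the G2/M score, against 0.137, with an adjusted p of 0.0526 (permutation test).

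The PSGL1 difference between CD86-high and CD86-low cells was lower in light zone than in dark zone cells (−0.265 light minus dark, adjusted p = 0.0307, permutation test over 19 plates, below on 16). Without replicate 8 of C57BL/6F it was −0.169 ± 0.222 (adjusted p = 0.0575, permutation test, below on 15 of 18 plates), and over all plates left out in turn it ran from −0.295 to −0.169. In light zone cells alone the PSGL1 difference was −0.126 ± 0.481, and −0.0228 without replicate 8 of C57BL/6F.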

How the results depend on the processing

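No called result changed sign. The number of called genes was 27 higher and 11 lower by DESeq2, 1 lower without estimateDisp, 1 lower with the median split, and 0 with every plate left out in turn. Without the replicate block 0 genes were called in light zone cells fitted alone (19 at an unadjusted p under 0.05). The joint fit of both zones without the block called 3 higher and 3 lower of 4675 genes in light zone cells. In that fit 165 light zone genes had an unadjusted p under 0.05. It also called 2 higher and 1 lower in the difference between zones. Of 9 fluorescence values, 1 of which is not reported here, the number past the threshold was 1, with 2 on C57BL/6F plates alone and 1 to 2 with each plate left out. Of 16 cell features 5 passed in cells of at least 5000 counts, 4 without the block, 3 to 10 with each plate left out, and 0 within the light zone gate, in its median split, in cells of at least 20000 counts, and on C57BL/6F or C57BL/6M plates alone, where fewer plates were tested.

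Differences that no longer passed, in genes per cell and in percentage points of G1, S and G2/M, were 133, −16.7, 12.3 and 4.41 within the light zone gate, 142, −20.7, 11.5 and 9.14 in its median split, 200.5, −16.5, 8.24 and 8.24 in cells of at least 20000 counts, 358, −22.6, 9.26 and 13.3 on C57BL/6F plates, and 214, −28.2, 12.8 and 15.3 on C57BL/6M plates. S was 8.63 in the median split, 10.6 at 5000 counts and 11.1 without the block, where genes per cell was 282. With each plate left out the ranges were 236 to 310 genes, −26.9 to −21.4 for G1, 9.91 to 13.1 for S and 11.02 to 16.3 for G2/M. The cause of these changes was not tested. With 2 to 6 cells per pool, sparse transcripts were mostly not measurable.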
